A study of Mus musculus with 2 samples.

Results

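The cells described here are Foxp3 regulatory T cells (Treg cells) from MC38 tumors, chosen by their own measured transcript counts in single-cell RNA sequencing. A barcode was a member when it had at least 500 genes, at most 20% mitochondrial UMIs (unique molecular identifiers, counts of captured transcripts) and at least 1 Foxp3 UMI. It also needed at least 1 UMI of Cd3d, Cd3e and Cd3g together, none of Cd8a or Cd8b1, and less than 0.1% of its UMIs from the macrophage genes C1qa, C1qb and C1qc. There were 98 members among 28002 kept barcodes of 29003 deposited, 87 in the untreated library and 11 in the MSA-2 library. Since Foxp3, Cd3, Cd8 and C1q counts selected the members, values of these genes are given only as a description.

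The study put MC38 cells, a mouse colon carcinoma line, under the skin of C57BL/6 mice of either sex aged 6 to 8 weeks. One group, labelled untreated and negative control, received intratumoral vehicle, saline with DMSO. The other received MSA-2, a small-molecule agonist of the innate DNA-sensing adaptor STING, by the same route. Both groups had 3 injections at intervals of 3 days, tumors were collected on day 7, and 3 mice or samples were pooled into 1 library per group, so mouse-to-mouse variation was not measured.

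Regulatory T cells restrain other lymphocytes and depend on the transcription factor FOXP3. They carry the high-affinity interleukin-2 receptor chain CD25, encoded by Il2ra, and the inhibitory receptor CTLA-4, and they consume interleukin-2 made by conventional T cells. In tumors they are known for an activated state with costimulatory receptors of the TNF receptor family, interleukin-10 and tissue-residency molecules.

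The untreated library held 198135335 UMIs in 14386 barcodes, of which 14039 (97.6%) were kept with a median of 8775 UMIs. The MSA-2 library held 204387165 UMIs in 14617 barcodes, of which 13963 (95.5%) were kept with a median of 9706 UMIs. The libraries shared 53 deposited barcode sequences, 44 of them kept, and 0 of the Treg members were among these. Untreated Treg cells had a median of 3658 UMIs (1082 to 65045), and the 11 MSA-2 Treg cells had a median of 3767 UMIs (1856 to 28589). With 1 library per group no difference had a replicate check. Intervals in parentheses or after a value are exact 95% intervals that cover counting error only, and a floor for a count of 0 is 3 counts.

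Comparisons within the untreated library used 62 Foxp3-negative Cd4 T cells as the closest cells, chosen by the same rule with Foxp3 at 0 and at least 1 Cd4 UMI. A second comparison used 814 CD8 T cells, with Cd8a or Cd8b1 present and Cd4 and Foxp3 at 0. Median depths were 3309.5 UMIs in the Foxp3-negative Cd4 T cells and 4097.5 UMIs in the CD8 T cells. Cd4 itself was thinly captured, since 19 of the 87 Treg cells had a Cd4 UMI. Levels are UMIs summed over the cells of a group and scaled by all UMIs of that group to a common total (CPM), so deep barcodes weigh more than shallow ones.

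Some members carried many UMIs of 3 genes used here as tumor-cell markers, which bears on every level below. Krt8 and Krt18, also listed as tumor-cell genes, had 0 UMIs in the untreated Treg cells. The paper describes the retained barcodes as immune cells, and the source of these transcripts was not tested. Of the 87 untreated Treg barcodes, 12 had at least 10 UMIs of the tumor-cell genes Gng11, Ccn1 and Anxa1 together, and these 12 held 42.7% of all Treg UMIs. Their tumor-marker counts ran from 17 to 126 UMIs, against 0 to 7 UMIs in the other 75; the limit of 10 fell in the gap. The 12 were deep, with a median of 17297 UMIs, and carried T cell receptor constant genes at 171 CPM against 1221 CPM in the 75. The 6 Treg genes outside the rule (Il2ra, Ctla4, Ikzf2, Tnfrsf4, Tnfrsf18 and Icos) summed to 854 CPM in the 12 and to 7578 CPM in the 75. At least 5 UMIs of these genes were found in 9 of the 12 and in 74 of the 75. Both kinds of Treg barcode thus carried Treg transcripts, which made up a smaller share of the UMIs in the deeper tumor-marker barcodes. The same 5 UMIs were also found in other T cells. Without tumor-marker barcodes these were 25 of 47 Foxp3-negative Cd4 T cells and 345 of 686 CD8 T cells, and among tumor-marker barcodes 6 of 15 and 41 of 128. Tumor-marker barcodes made up 15 of the 62 Foxp3-negative Cd4 T cells (70.6% of their UMIs) and 128 of the 814 CD8 T cells (55.8%). In the MSA-2 library they were 2 of the 11 Treg cells (62.8% of UMIs) and 2 of the 11 Foxp3-negative Cd4 T cells (53.3%). Results are therefore given with all cells and in reduced groups without tumor-marker barcodes, which held 75 Treg, 47 Foxp3-negative Cd4 and 686 CD8 T cells in the untreated library and 9 Treg cells in the MSA-2 library. Doublets were otherwise kept, and the doublet caller Scrublet marked 7 of the 87 untreated members, 6 of them among the 12.

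**Figure D1:**
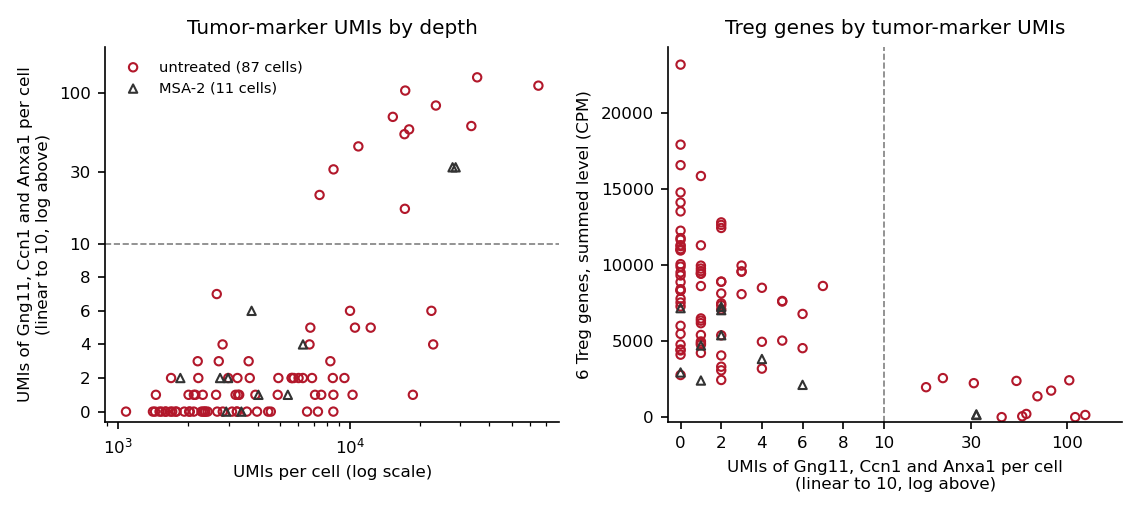
Left, UMIs of 3 tumor-cell genes per Treg cell against the cell's total UMIs (log axis); right, the summed level of Il2ra, Ctla4, Ikzf2, Tnfrsf4, Tnfrsf18 and Icos in each Treg cell (CPM of that cell) against its tumor-marker UMIs. Circles are 87 untreated and triangles 11 MSA-2 cells, the dashed line marks 10 UMIs, and the 12 untreated cells past it sit at low Treg gene levels.

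The rule's threshold of 1 Foxp3 UMI is the lowest possible, and 47 of the 87 untreated members had exactly 1. Another 27 had 2 UMIs and 13 had 3 or more, up to 5. Members with 1 Foxp3 UMI had Il2ra at 216 CPM, Ctla4 at 727 CPM and Ikzf2 at 982 CPM. Cells just outside fell into those with a Cd4 UMI, the Foxp3-negative Cd4 T cells, and 1251 without. The Foxp3-negative Cd4 T cells had 38.2, 205 and 286 CPM of the same genes, and the 1251 had 6.44, 21.5 and 40.1 CPM. So cells on either side of this threshold stood apart in genes that it did not use. In the reduced groups the 40 members with 1 Foxp3 UMI had 384, 1385 and 1805 CPM. The 47 cells outside with Cd4 had 107, 678 and 938 CPM, and the 395 without had 112, 342 and 649 CPM.

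Counts of other Treg genes also differed among members by their Foxp3 count, as the plot by Foxp3 UMIs shows. Members with 2 Foxp3 UMIs had Il2ra at 463 CPM and Ctla4 at 1505 CPM, and those with 3 or more had 324 and 1039 CPM. With tumor-marker barcodes left out, Il2ra was at 572 CPM with 2 and 570 CPM with 3 or more Foxp3 UMIs, and Ikzf2 (Helios, a transcription factor of Treg cells) was at 1958 and 2609 CPM. Cells with more Foxp3 UMIs were also deeper, with medians of 2744.5, 3785 and 6536 UMIs in the 3 classes of the reduced group, so depth and Foxp3 count cannot be told apart here.

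**Figure D2:**
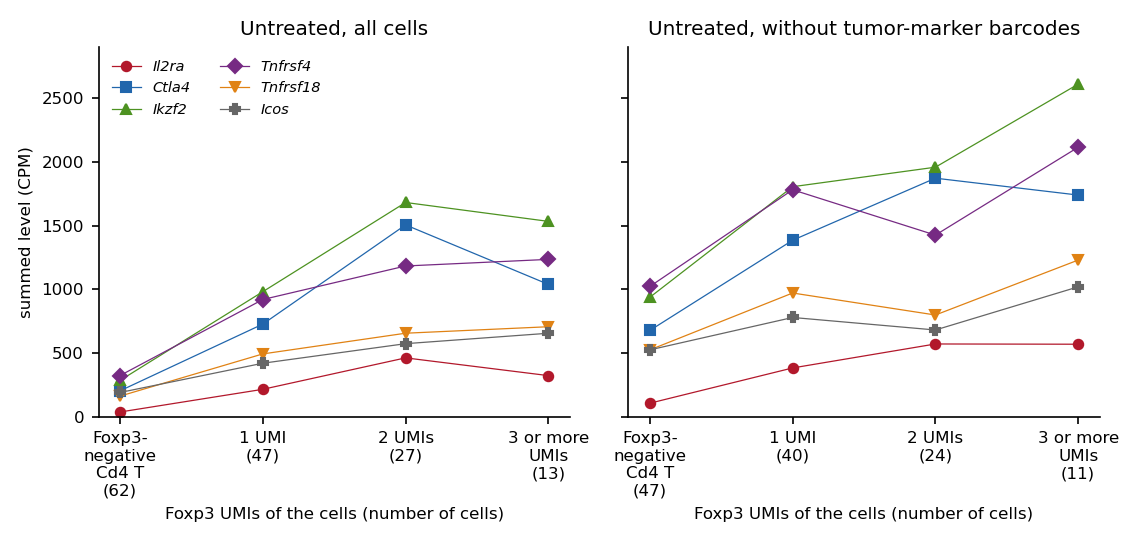
Summed level (CPM) of 6 Treg genes in untreated Foxp3-negative Cd4 T cells and in Treg cells with 1, 2 or 3 and more Foxp3 UMIs, with numbers of cells under each class. Lines join the points of a gene only to guide the eye, and each of the 6 genes is lowest in the Foxp3-negative cells in both panels.

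Of 132 untreated kept barcodes with a Foxp3 UMI, 45 failed another part of the rule. The 18 that failed only for lack of Cd3 were deep (median 25241.5 UMIs) and had 0 Il2ra UMIs and Ctla4 at 6.07 CPM. The 15 that failed only for C1q, with a median of 0.183% of UMIs, had Il2ra at 576 CPM, Ctla4 at 695 CPM and Ikzf2 at 1049 CPM. Thus the Cd3 requirement set aside barcodes without the other Treg markers, while the C1q limit set aside 15 barcodes that carried them. Another 4 failed only for Cd8 and 8 failed more than one part. Inside the rule, the 9 members with a single Cd3 UMI had Il2ra at 106 CPM and the 78 with more had 350.4 CPM. In the reduced group those values were 533 CPM in 5 cells and 483 CPM in 70 cells.

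The label was then checked against its markers. Il2ra had a UMI in 62 of the 87 untreated members (71.3%) and Ctla4 in 80 (92.0%). The shares were 24.2% and 45.2% in Foxp3-negative Cd4 T cells and 15.1% and 48.8% in CD8 T cells, so neither gene was confined to members. Among macrophage-gated cells, which should lack both, the shares were 1.53% and 2.18% of 4182 cells at a median of 5535 UMIs, a greater depth than that of the Treg cells. Foxp3 had a UMI in 7 of those 4182 cells (0.167%, 0.0673 to 0.345%) and in 18 of 7206 other cells without Cd3 (0.250%, 0.148 to 0.394%, median 15862 UMIs). Without tumor-marker barcodes the counts were 4 of 3788 and 3 of 1443. Foxp3 among T cells was thus far above its level elsewhere, at 91 of 2226 cells that met the Cd3 and C1q limits (4.09%), or 77 of 1210 (6.36%) without tumor-marker barcodes. Such barcodes were 1016 of the 2226 and held 85.8% of the UMIs of that group. In the MSA-2 library Foxp3 was seen in 0 of 1580 macrophage-gated cells (upper limit 0.233%) and in 12 of 12005 other cells without Cd3. The 8 T cell genes outside Cd3 (Trac, Trbc1, Trbc2, Cd4, Cd2, Cd5, Thy1 and Cd28) were all detected in the untreated members, at 1840 CPM together and at 2932 CPM in the reduced group. The markers bore out the label in the 75 cells, and less so in the 12 tumor-marker barcodes.

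Promoter windows from RefSeq (mouse build GRCm38.p6, 250 bases before to 50 after a gene's start) were read for the 11 genes of the Treg identity list, most of which were higher in Treg cells in the comparisons with all cells below. Windows of 300 bases were found for 8 of the 11 genes, 9 windows in all, since Foxp3 had 2. The forkhead motif TGTTTAC, on either strand, was in 0 of the 9 windows and in 3.65% of 32851 windows of all genes. The STAT motif TTCNNNGAA was in 2 of the 9 windows and in 8.30% of all. The windows of Foxp3 at chrX:7580233-7580532, Il2ra at chr2:11642542-11642841, Ctla4 at chr1:60908775-60909074 and Tnfrsf18 at chr4:156026072-156026371, all on the plus strand, are shown for the genes that define and mark these cells, with STAT matches in capitals. A match is a description of the letters and not of a binding site.
Foxp3: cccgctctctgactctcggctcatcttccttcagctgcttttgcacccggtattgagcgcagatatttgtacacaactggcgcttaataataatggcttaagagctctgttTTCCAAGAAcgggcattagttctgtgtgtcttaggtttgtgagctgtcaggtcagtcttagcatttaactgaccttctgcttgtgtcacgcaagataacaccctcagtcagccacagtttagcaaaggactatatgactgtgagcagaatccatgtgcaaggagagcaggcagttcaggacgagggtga
Il2ra: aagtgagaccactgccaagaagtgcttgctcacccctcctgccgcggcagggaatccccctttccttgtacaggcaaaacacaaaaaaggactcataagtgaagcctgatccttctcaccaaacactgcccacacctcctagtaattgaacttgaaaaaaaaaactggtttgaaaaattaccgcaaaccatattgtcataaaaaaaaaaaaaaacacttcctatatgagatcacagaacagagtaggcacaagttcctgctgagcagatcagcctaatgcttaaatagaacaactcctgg
Ctla4: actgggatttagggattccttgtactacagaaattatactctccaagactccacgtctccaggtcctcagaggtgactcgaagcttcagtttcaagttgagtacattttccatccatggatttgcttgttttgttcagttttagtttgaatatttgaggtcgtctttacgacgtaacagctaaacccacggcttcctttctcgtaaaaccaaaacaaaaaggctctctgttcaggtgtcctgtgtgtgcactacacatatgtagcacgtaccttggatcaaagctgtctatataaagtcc
Tnfrsf18: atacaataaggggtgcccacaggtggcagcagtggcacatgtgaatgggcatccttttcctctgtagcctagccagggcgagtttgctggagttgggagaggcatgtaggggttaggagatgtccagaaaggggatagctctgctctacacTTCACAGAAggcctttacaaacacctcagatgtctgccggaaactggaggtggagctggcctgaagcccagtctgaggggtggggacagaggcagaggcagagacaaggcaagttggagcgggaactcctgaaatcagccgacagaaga

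Across the untreated library, 4202 genes outside the rule had at least 50 UMIs over the Treg and Foxp3-negative Cd4 T cells. Of these, 220 were at least 2-fold higher in Treg cells (5.24%) and 87 at least 2-fold lower (2.07%). In the reduced groups 2037 genes had 50 UMIs, with 66 higher (3.24%) and 71 lower (3.49%). Among the genes with enough UMIs in both versions, 166 were 2-fold higher with all cells and 28 of them were also 2-fold higher in the reduced groups. For lower genes the numbers were 14 and 10, and 0 genes passed the fold in opposite directions. Most of the higher calls with all cells thus did not hold without the tumor-marker barcodes, so both values are given for each gene.

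Against CD8 T cells, 9491 genes had 50 UMIs, of which 400 were at least 2-fold higher in Treg cells (4.21%) and 654 lower (6.89%). The reduced groups gave 492 higher (7.1%) and 663 lower (9.56%) of 6934. The median log2 ratio over all genes tested was 0.04 against Foxp3-negative Cd4 T cells and 0.00 against CD8 T cells, and 0.08 and 0.07 in the reduced groups. These medians are the baseline for the lists below, each of which was named by function.

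Of the Treg identity list of 11 genes, 10 lay outside the rule and 8 had enough UMIs against Foxp3-negative Cd4 T cells. Of the 8, 7 were at least 2-fold higher, with a median log2 ratio of 1.92, beside 5.24% of all genes and a median of 0.04. Reduced, 3 of 7 passed, with a median of 0.97 beside 0.08. Against CD8 T cells 7 of 8 passed with all cells and 7 of 8 in the reduced groups, with medians of 2.819 and 2.496. Summed over the 10 genes, the level was 4479 CPM in Treg cells, 1131 CPM in Foxp3-negative Cd4 T cells and 674 CPM in CD8 T cells. The reduced sums were 7179, 3565 and 1327 CPM, so the order of the 3 cell types was the same in both versions.

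Il2ra, the CD25 chain that gives high affinity for interleukin-2, stood at 303 CPM (262 to 349) in Treg cells against 38.2 CPM in Foxp3-negative Cd4 T cells and 30.7 CPM in CD8 T cells. Its log2 ratio over the Foxp3-negative cells was 2.99 (2.36 to 3.68), and 2.17 (1.49 to 2.94) in the reduced groups at 484.5 against 107 CPM. Ctla4, the inhibitory receptor that takes CD80 and CD86 from antigen-presenting cells, was at 996 against 205 CPM, a log2 ratio of 2.28 (2.003 to 2.57), and at 1622 against 678 CPM in the reduced groups, a ratio of 1.26 (0.97 to 1.55). Both receptors were thus higher in Treg cells in either version, with reduced ratios smaller than those of all cells. When Foxp3-negative Cd4 T cells with an Il2ra or Ikzf2 UMI were also left out, the ratio of Ctla4 rose to 4.52 with all cells and to 2.75 in the reduced groups, so it depended on which Cd4 T cells served as comparison. That choice left cells out by their Treg genes, which itself favours a higher ratio, so the rise is no separate support.

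Ikzf2, which encodes Helios, was at 1274 CPM in Treg cells and 286 CPM in Foxp3-negative Cd4 T cells, a log2 ratio of 2.15 (1.92 to 2.40), and of 1.10 (0.85 to 1.35) in the reduced groups. Tnfrsf4, the costimulatory receptor OX40, was at 1050.0 and 324 CPM, a ratio of 1.70 (1.46 to 1.93), which was 0.75 (0.51 to 0.99) in the reduced groups. Tnfrsf18, the related receptor GITR, had ratios of 1.82 (1.499 to 2.16) and 0.87 (0.53 to 1.21). These genes were higher in Treg cells in both versions, and OX40 and GITR were under 2-fold without the tumor-marker barcodes. OX40 and GITR passed 2-fold in the reduced groups when Foxp3-negative Cd4 T cells with an Il2ra or Ikzf2 UMI were also left out. Their place at this limit thus depended on the comparison. Leaving cells out by Treg genes itself favours higher ratios of other Treg genes, so passing the limit there is no separate support. Against CD8 T cells the reduced ratios were 1.87 for Ikzf2, 3.24 for Tnfrsf4 and 2.30 for Tnfrsf18.

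The remaining identity genes were sparse. Izumo1r, the folate receptor family member FR4 of Treg cells, had 59 UMIs and a log2 ratio of 2.01 (1.15 to 2.96), or 0.97 (0.07 to 1.97) reduced, and 6.38 (5.07 to 8.06) over CD8 T cells in the reduced groups. Ikzf4, encoding the Helios relative Eos, had ratios of 1.24 (0.44 to 2.09) and 0.36 (-0.50 to 1.29). Nrp1, the semaphorin receptor neuropilin-1, had ratios of 0.75 (0.06 to 1.46) and -0.22 (-1.16 to 0.76). The data thus did not set Ikzf4 or Nrp1 apart from Foxp3-negative Cd4 T cells once tumor-marker barcodes were left out. Lrrc32, the TGF-beta docking receptor GARP, had 19 UMIs in Treg cells and 7 in Foxp3-negative Cd4 T cells, a ratio of 1.37 (0.06 to 2.87) and of 0.41 (-0.90 to 1.90) reduced. Gpr83, an orphan receptor described in Treg cells, had 0 UMIs in every group.

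**Figure D3:**
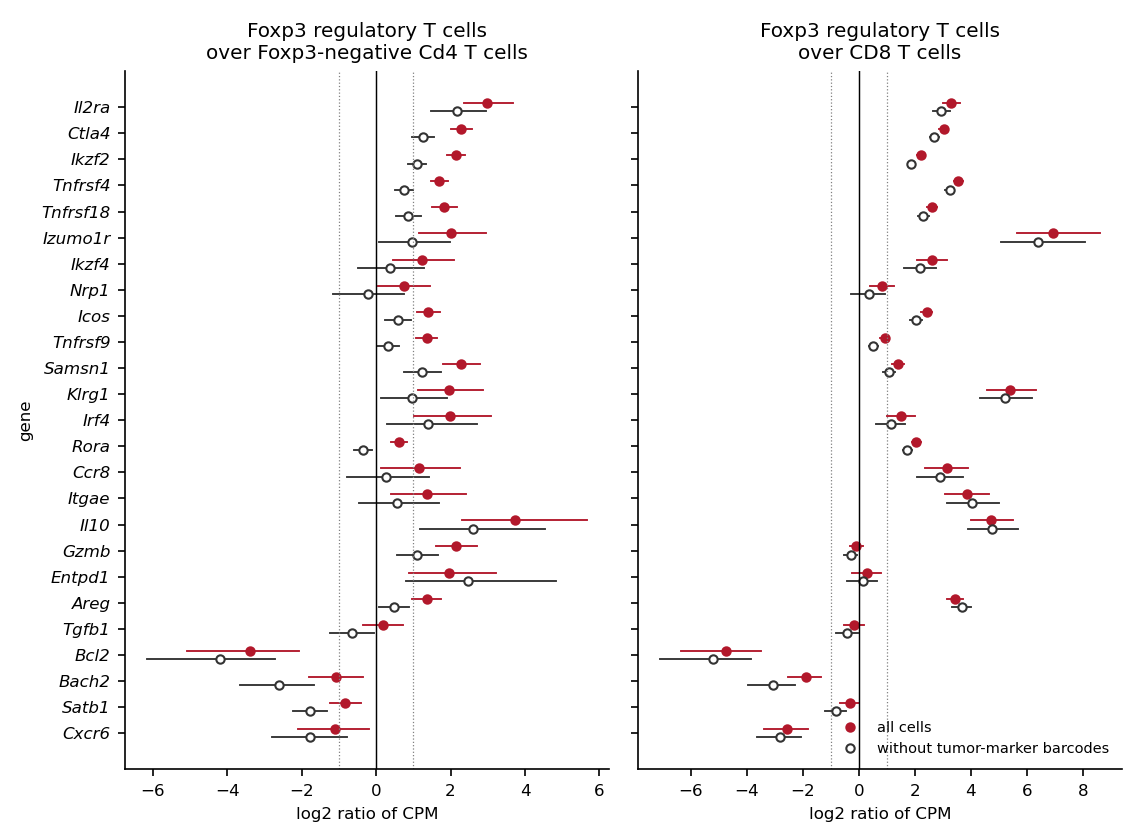
Log2 ratios of summed CPM in untreated Treg cells over Foxp3-negative Cd4 T cells (left) and CD8 T cells (right) for 25 genes, with exact 95% counting intervals as bars and dotted lines at 2-fold. Filled points use all cells and open points the reduced groups, in which most ratios over Foxp3-negative Cd4 T cells sit lower.

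Genes of activated, tissue and tumor Treg cells came next, a list of 15 of which 9 had enough UMIs. Of the 9, 6 were at least 2-fold higher and 0 lower (median 1.36), and in the reduced groups 2 of 8 were higher (median 0.45). Against CD8 T cells 11 of 13 were higher with all cells and 10 of 12 in the reduced groups (medians 1.89 and 1.46). Compared with CD8 T cells the list was therefore mostly past 2-fold in both versions, while compared with Foxp3-negative Cd4 T cells it was so mainly with all cells.

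Icos, a costimulatory receptor of the CD28 family, was at 506 against 191 CPM in Foxp3-negative Cd4 T cells, a log2 ratio of 1.40 (1.09 to 1.72), and 0.59 (0.24 to 0.94) in the reduced groups. Samsn1, an adaptor protein of lymphocytes, had a ratio of 2.29 (1.81 to 2.79) and a reduced ratio of 1.23 (0.74 to 1.75). Irf4, a transcription factor that effector Treg cells need, had 46 UMIs and ratios of 1.996 (1.03 to 3.09) and 1.40 (0.29 to 2.70). Of the genes with enough UMIs, Samsn1 and Irf4 were the 2 past 2-fold in the reduced groups. Klrg1, an inhibitory lectin-like receptor of terminally differentiated cells, had ratios of 1.96 (1.12 to 2.88) and 0.97 (0.14 to 1.89). Over CD8 T cells it was 5.40 higher with all cells and 5.21 higher in the reduced groups on the log2 scale. Tnfrsf9, the costimulatory receptor 4-1BB, had ratios of 1.36 (1.08 to 1.63) and 0.31 (0.03 to 0.61).

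Direction itself changed for Rora, a nuclear receptor of tissue Treg cells, with a log2 ratio of 0.61 (0.39 to 0.83) with all cells and of -0.35 (-0.58 to -0.12) in the reduced groups. Over CD8 T cells Rora was higher in both, by 2.04 and 1.73. Ccr8, the chemokine receptor of tumor Treg cells, had 28 UMIs and ratios of 1.15 (0.13 to 2.26) and 0.27 (-0.79 to 1.43). Ccr8 and Rora thus separated Treg cells from CD8 T cells more than from Foxp3-negative Cd4 T cells, and the reduced ratio of Ccr8 over CD8 T cells was 2.90 (2.09 to 3.71). Itgae, the CD103 integrin chain that holds cells in epithelium, had ratios of 1.36 (0.41 to 2.40) and 0.56 (-0.46 to 1.69), and 4.05 over reduced CD8 T cells. Il1rl1, the receptor of the alarmin interleukin-33, did not differ detectably from Foxp3-negative Cd4 T cells, at -0.16 (-0.77 to 0.45) and -0.74 (-2.15 to 0.71).

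Suppressive molecules formed a list of 13, of which 8 had enough UMIs. At least 2-fold higher were 4 of the 8 (median 0.98), and 2 of 8 in the reduced groups (median 0.17). The summed level went the other way with all cells, at 3983 CPM in Treg cells against 4894 CPM, a log2 ratio of -0.30 (-0.37 to -0.22), and was 0.29 (0.15 to 0.43) reduced. With all cells, single genes and the sum thus differed in direction, since 7 of the 8 genes were higher. In the reduced groups 6 of 8 were higher, the same direction as the sum. Il10, the suppressive cytokine interleukin-10, had 56 UMIs in Treg cells and 4 in Foxp3-negative Cd4 T cells, a log2 ratio of 3.74 (2.30 to 5.66). Its reduced counts were 50 and 4 UMIs, a ratio of 2.61 (1.17 to 4.55), and over CD8 T cells the ratios were 4.72 and 4.74. Among genes with enough UMIs and at least 50 CPM in either cell type, Il10 had the highest ratio over Foxp3-negative Cd4 T cells with all cells. Entpd1, the ATP-degrading ectoenzyme CD39, had ratios of 1.97 (0.89 to 3.21) and 2.47 (0.80 to 4.82) over them, the latter from 34 against 3 UMIs.

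Gzmb, the cytotoxic protease granzyme B, was at 255 CPM in Treg cells, 58.2 CPM in Foxp3-negative Cd4 T cells and 273 CPM in CD8 T cells. Its log2 ratio over the Foxp3-negative cells was 2.13 (1.60 to 2.70), or 1.10 (0.56 to 1.67) reduced, and over CD8 T cells -0.10 (-0.34 to 0.14), or -0.30 (-0.55 to -0.06) reduced. Granzyme B transcripts in Treg cells thus lay near those of CD8 T cells. Areg, the repair growth factor amphiregulin, had ratios of 1.36 (0.97 to 1.76) and 0.48 (0.07 to 0.89) over Foxp3-negative Cd4 T cells and 3.44 and 3.67 over CD8 T cells. Penk, the precursor of enkephalins, had ratios of 0.66 (0.25 to 1.07) and -0.36 (-0.81 to 0.09). Tgfb1, the cytokine TGF-beta, had ratios of 0.18 (-0.34 to 0.71) and -0.66 (-1.25 to -0.05). For these last 2 genes the sign depended on the tumor-marker barcodes. Ebi3, a chain of interleukin-35, had 15 UMIs and its partner Il12a had 0.

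Genes of conventional helper cells pointed the other way. Of this list of 16, 2 had enough UMIs and 1 was at least 2-fold lower, and none had enough in the reduced groups. The 16 genes summed to 99.9 CPM in Treg cells and 213 CPM in Foxp3-negative Cd4 T cells, a log2 ratio of -1.09, and to 122 against 514 CPM in the reduced groups, a ratio of -2.08 (-2.63 to -1.54). Cd40lg, the ligand with which helper cells license B cells and dendritic cells, had 0 UMIs in Treg cells against 12, at least 4.19-fold lower given a floor of 3 UMIs over the group. Reduced, it was 0 against 8 UMIs, at least 5.44-fold lower. Ifng, encoding interferon gamma, had 7 UMIs in Treg cells and 22 in Foxp3-negative Cd4 T cells, a ratio of -1.72 (-3.19 to -0.44), or -2.39 (-3.89 to -1.06) reduced. Tnf, the inflammatory cytokine, had ratios of -1.33 (-2.31 to -0.43) and -2.33 (-3.38 to -1.36). Il2, Il4, Il5, Il13, Il21, Il22 and Il17f, all effector cytokines, had 0 UMIs in Treg cells. The Treg cells thus carried fewer helper transcripts than their neighbours in both versions.

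Resting and recirculating T cell genes made a list of 9, of which 5 had enough UMIs, 1 higher and 1 lower (median 0.07). Reduced, 0 were 2-fold higher and 2 of 5 lower (median -0.80), and the sum was 966 against 1966 CPM, a log2 ratio of -1.02. Bach2, a repressor that keeps T cells quiescent, had ratios of -1.07 (-1.81 to -0.36) and -2.61 (-3.64 to -1.68). Satb1, a chromatin organizer of T cells, had ratios of -0.82 (-1.24 to -0.41) and -1.78 (-2.24 to -1.33). Both were lower in Treg cells in either version, and more so without tumor-marker barcodes. Tcf7, the stem-like T cell factor TCF-1, had 0 UMIs in Treg cells against 13, at least 4.54-fold lower, and 0 against 8 reduced, at least 5.44-fold lower. Klf2, which drives exit from tissue, had ratios of 0.07 (-0.12 to 0.26) and -0.80 (-1.21 to -0.39).

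In the interleukin-2 pathway, 10 of 13 genes had enough UMIs, with 2 higher and 1 lower (median 0.38), and in the reduced groups 1 of 8 was higher and 1 lower (median -0.20). Bcl2, the survival factor that STAT5 induces, was lowest of all genes ranked, with 5 UMIs in 87 Treg cells against 50 UMIs in 62 Foxp3-negative Cd4 T cells. Its log2 ratio was -3.39 (-5.07 to -2.07), and -4.20 (-6.15 to -2.72) in the reduced groups from 4 against 36 UMIs. Over CD8 T cells, where it stood at 212 CPM, the ratio was -4.74 and the reduced ratio -5.23. Low Bcl2 in Treg cells was thus seen against both T cell groups, and its ratio over the Foxp3-negative cells was between -2.38 and -4.64 under every alternative run. Il2rb, the shared interleukin-2 and interleukin-15 receptor chain, had ratios of 1.08 (0.67 to 1.51) and 0.14 (-0.29 to 0.59). Socs3, a feedback inhibitor of cytokine receptors, had ratios of -0.18 (-0.69 to 0.34) and -1.87 (-2.76 to -1.02).

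Of 18 transcription factors that act with, before or against FOXP3, 17 had enough UMIs and 3 were higher (median 0.28). Reduced, 0 of 12 were higher and 1 was lower (median -0.18). Maf, which drives Il10 and follicular programs, had log2 ratios of 1.30 (0.87 to 1.74) and 0.47 (-0.01 to 0.98) over Foxp3-negative Cd4 T cells and 4.48 and 5.23 over CD8 T cells. Ikzf3, encoding the Helios relative Aiolos, had ratios of 1.70 (0.96 to 2.495) and 0.88 (0.06 to 1.77). Runx3, the factor of the CD8 lineage, had ratios of -0.11 (-0.81 to 0.59) and -1.03 (-1.78 to -0.28), and -1.71 and -2.04 over CD8 T cells. The list lay above the median of all genes with all cells and below it in the reduced groups, with sums at 0.47 (0.36 to 0.57) and -0.20 (-0.34 to -0.07).

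Surface receptors beyond Ctla4 and the TNF receptor family gave small counts. Of 10 inhibitory receptors 3 had enough UMIs, with 2 of 3 higher (median 1.35) and 1 of 3 in the reduced groups (median 0.41), Ctla4 itself. Pdcd1, the checkpoint receptor PD-1, had 17 UMIs in Treg cells and did not differ detectably from Foxp3-negative Cd4 T cells, at 0.32 (-0.81 to 1.48) and -0.92 (-2.12 to 0.29), but was lower than in CD8 T cells by log2 ratios of -1.86 and -2.32. Of 9 costimulatory receptor genes 5 of 7 were higher (median 1.36), and 0 of 7 in the reduced groups (median 0.39). Of 12 chemokine receptors all 3 with enough UMIs were higher (median 1.38), and 0 of 3 in the reduced groups (median 0.71). With Foxp3-negative Cd4 T cells taken regardless of Il2ra and Ikzf2, costimulatory and chemokine receptors thus passed 2-fold only while tumor-marker barcodes were counted. In the reduced groups Tnfrsf4, Tnfrsf18 and Tnfrsf9 did pass it against the cells without Il2ra or Ikzf2 UMIs. That comparison was chosen by Treg genes and itself favours higher ratios of such receptors. Ccr2, the receptor of monocyte chemoattractants, had ratios of 2.14 (1.35 to 3.02) and 0.99 (0.16 to 1.92). Cxcr6, a tissue-retention receptor of effector T cells, was lower at -1.12 (-2.11 to -0.18) and -1.77 (-2.79 to -0.79), and at -2.56 and -2.81 over CD8 T cells.

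T cell receptor signaling genes changed direction between the versions. Of 14, 11 had enough UMIs with 3 higher and 0 lower (median 0.63), and in the reduced groups 0 of 10 were higher and 2 lower (median -0.22). Their sum had a log2 ratio of 0.41 (0.29 to 0.52), and of -0.44 (-0.61 to -0.28) reduced. Over CD8 T cells 1 of 14 was higher and 2 lower (median 0.08) with a sum at -0.12 (-0.20 to -0.04), and reduced 0 of 13 were higher and 5 lower (median -0.40) with a sum at -0.79 (-0.90 to -0.68). Against CD8 T cells the list was thus near level with all cells and lower in the reduced groups. Prkcq, the kinase PKC-theta downstream of the receptor and CD28, had log2 ratios of -1.42 (-2.72 to -0.26) and -2.32 (-3.62 to -1.14). Nr4a2, an early response nuclear receptor, had ratios of 0.28 (-0.10 to 0.66) and -1.24 (-2.08 to -0.42), and -1.17 and -3.49 over CD8 T cells. The list therefore gave no gene that was 2-fold higher in Treg cells in both versions.

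Cell cycle genes numbered 10, and all had enough UMIs, 1 of them higher and 0 lower (median 0.11). In the reduced groups 2 of 6 were higher (median 0.75), the sum was 1952 against 1090.5 CPM, a log2 ratio of 0.84 (0.61 to 1.08), beside 0.27 (0.12 to 0.41) with all cells. Against CD8 T cells 1 of 10 was higher with all cells, with a sum at 0.18 (0.08 to 0.29), and 3 of 10 reduced (median 0.88). Mki67, the proliferation marker Ki-67, had ratios of 1.26 (0.80 to 1.75) and 1.78 (1.06 to 2.58) over Foxp3-negative Cd4 T cells and 1.24 and 1.69 over CD8 T cells. Ube2c, a mitotic ubiquitin enzyme, had ratios of 0.04 (-0.33 to 0.40) and 1.18 (0.51 to 1.92). Mki67 was thus higher in Treg cells in both versions, and the list as a whole mainly where tumor-marker barcodes were left out.

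Among 11 metabolic genes 1 of 8 was higher (median 0.20) and 1 of 4 in the reduced groups (median 0.85). That gene was Fabp5, a fatty acid carrier, with log2 ratios of 1.28 (1.08 to 1.47) and 1.13 (0.64 to 1.64) over Foxp3-negative Cd4 T cells and 1.49 and 1.44 over CD8 T cells. Pkm and Ldha, enzymes of glycolysis, had ratios of 0.10 and 0.37 with all cells and of 0.92 (0.64 to 1.21) and 0.77 (0.47 to 1.08) in the reduced groups. Of 12 genes of cell death and survival, 2 of 9 were higher and 1 lower (median 0.07), and in the reduced groups 0 of 5 were higher and 1 lower (median 0.02). Bcl2l1, which encodes the survival factor BCL-XL, had ratios of 1.07 (0.51 to 1.65) and 0.50 (-0.13 to 1.18) over Foxp3-negative Cd4 T cells and 2.01 and 2.09 over CD8 T cells. Bcl2l11, encoding the death factor BIM, had ratios of -0.36 (-1.15 to 0.42) and -1.65 (-2.78 to -0.57). Treg cells thus differed from CD8 T cells in opposite ways for Bcl2 and Bcl2l1.

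Ranking all genes with at least 50 UMIs and at least 50 CPM in either cell type gave 15 highest genes, of which 7 were in the lists above (Il10, Il2ra, Samsn1, Ctla4, Ikzf2, Ccr2 and Gzmb). Genes outside the lists included Frmd5, a FERM-domain protein, with 59 against 7 UMIs, a log2 ratio of 3.01 (1.87 to 4.38), and 2.22 (1.01 to 3.72) in the reduced groups. Chchd10, a mitochondrial protein, had ratios of 2.90 (1.67 to 4.42) and 2.08 (0.74 to 3.77). Arl5a, a small GTPase of the ARF family, had ratios of 2.45 (1.77 to 3.19) and 2.39 (1.46 to 3.49). These 3 held past 2-fold without tumor-marker barcodes. Cxcl2, a neutrophil-attracting chemokine, had ratios of 2.18 (1.42 to 3.03) and 2.04 (0.98 to 3.31). Gm11884 had 53 UMIs in Treg cells and a ratio of 2.49, but 0 UMIs in the reduced Treg group, so its ratio rested on the tumor-marker barcodes.

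At the other end stood Bcl2, followed by Gzmc, the protease granzyme C, with 10 against 66 UMIs, a log2 ratio of -2.79 (-3.92 to -1.82), and -3.67 (-4.87 to -2.64) in the reduced groups. Next came Apod at -2.68 from 9 against 55 UMIs, but its reduced counts were 3 against 0 UMIs, the other direction. Then came Cst6 at -2.37, with reduced counts of 3 against 5 UMIs. Tnfsf11, the cytokine RANKL, had ratios of -1.99 (-2.95 to -1.12) and -2.74 (-3.86 to -1.73). Cst3, a secreted protease inhibitor, had ratios of -2.08 (-2.34 to -1.82) and -3.41 (-3.76 to -3.07). Cst3 was lower in Treg cells in both versions, yet its reduced ratio became 0.45 when Foxp3-negative Cd4 T cells with an Il2ra or Ikzf2 UMI were also left out. The reduced Foxp3-negative Cd4 T cells carried dendritic cell and MHC class II genes at 4113 CPM against 1024 CPM in Treg cells, and the part of such transcripts in the Cst3 value was not tested. Vat1, a membrane transport protein, had ratios of -1.85 with all cells and 0.97 reduced, the latter from 4 against 1 UMIs, and Rgma and Eps8 had reduced counts of at most 5 UMIs in Treg cells.

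Shares of cells with a UMI were compared at equal depth by thinning each cell to 1500 UMIs, which left out 4 of the 87 Treg cells that were shallower. Ctla4 was then seen in 79.5% of 83 Treg cells (69.2 to 87.6%), 35.0% of 60 Foxp3-negative Cd4 T cells and 24.1% of 805 CD8 T cells, and unthinned in 92.0% of the Treg cells. Il2ra was seen in 42.2% (31.4 to 53.5%), 11.7% and 6.46% of the same cells, and unthinned in 71.3% of the Treg cells. Macrophage-gated cells at the same depth gave 0.337% for Ctla4 and 0.389% for Il2ra, far under the shares of Treg cells. In the reduced groups Ctla4 was in 87.3% of 71 Treg cells, 46.7% of 45 and 28.4% of 677 cells, and Il2ra in 47.9%, 15.6% and 7.53%. Ikzf2 was in 84.5%, 37.8% and 38.4% of the same reduced groups, and Tnfrsf4 in 87.3%, 46.7% and 18.3%. Thus at matched depth each of these genes marked a larger share of Treg cells than of either other T cell group.

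Lower shares followed the same pattern as the summed levels. Il10 was in 19.3% of thinned Treg cells against 3 of 60 Foxp3-negative Cd4 T cells and 0.497% of CD8 T cells, and in the reduced groups in 21.1% against 6.67% and 0.443%. Macrophage-gated cells, which can make Il10, had it in 3.86%. Bcl2 was in 3.61% of thinned Treg cells, 13.3% of Foxp3-negative Cd4 T cells and 34.3% of CD8 T cells, and in the reduced groups in 4.23%, 17.8% and 38.0%. Its share in macrophage-gated cells was 4.67%, so Bcl2 in Treg cells was no higher than in those cells.

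**Figure D4:**
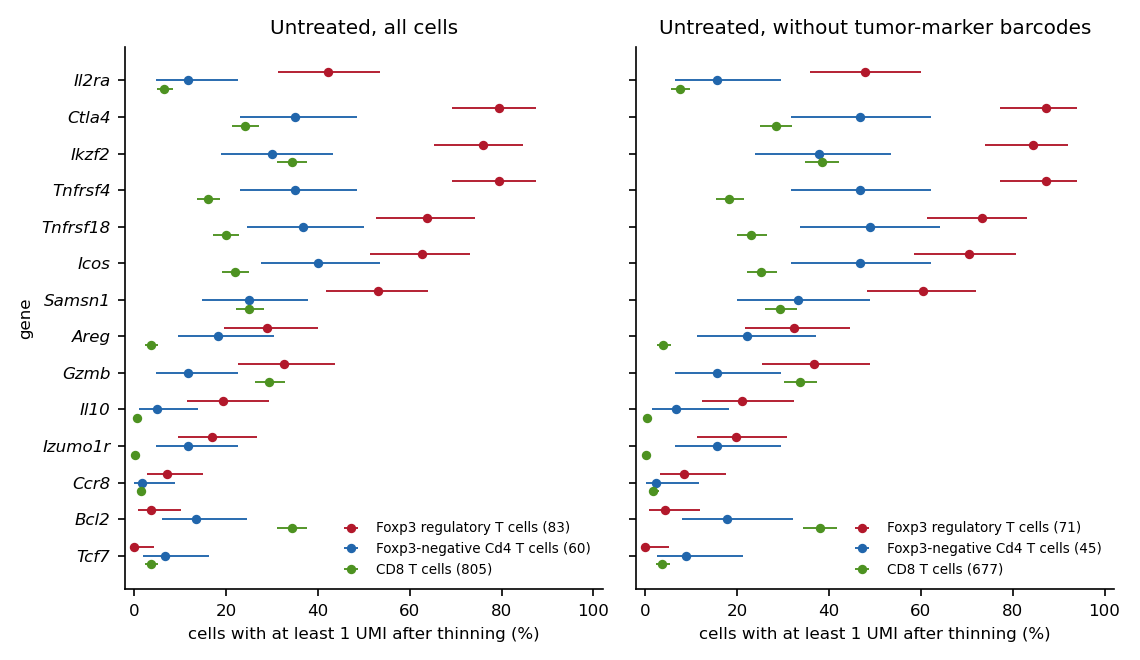
Share of untreated cells with at least 1 UMI of each of 14 genes after thinning every cell to 1500 UMIs, with exact 95% intervals, for Treg cells, Foxp3-negative Cd4 T cells and CD8 T cells (numbers of cells in the legend). Left, all cells; right, without tumor-marker barcodes; Ctla4, Ikzf2 and Tnfrsf4 lie above 75% in Treg cells in both panels.

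Members varied widely among themselves. The median cell had Ctla4 at 1332 CPM of its own UMIs, with quartiles of 541 and 2328 CPM, and 7 of the 87 had none. Ikzf2 had a median of 1683 CPM (quartiles 845 and 2645) and was at 0 in 9 cells, and Il2ra had a median of 354 CPM (quartiles 0 and 645) and was at 0 in 25. Izumo1r was at 0 in 54 of the 87. Part of this spread is counting, since a cell of median depth gives few UMIs per gene. In the reduced group the medians were 1554, 1848 and 424 CPM for Ctla4, Ikzf2 and Il2ra, with 4, 5 and 19 cells at 0 among 75.

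Per-cell gates gave a coarse view of states after thinning to 1500 UMIs. At least 2 of 6 genes of activated Treg cells (Ccr8, Tnfrsf9, Klrg1, Il1rl1, Itgae and Prdm1) were seen in 25 of 83 Treg cells (30.1%, 20.5 to 41.2%), against 7 of 60 Foxp3-negative Cd4 T cells (11.7%, 4.82 to 22.6%) and 5.84% of CD8 T cells. Reduced shares were 32.4% of 71 and 15.6% of 45 cells. At least 2 of 6 resting T cell genes were seen in 11 Treg cells (13.3%, 6.81 to 22.5%) and 12 of 60 Foxp3-negative Cd4 T cells, and in 15.5% and 26.7% of the reduced groups. CD8 T cells met the resting gate in 9.69% of cases (7.73 to 11.9%), or 10.5% reduced. The activated share in Treg cells was thus above that of CD8 T cells beyond counting error, while the intervals of Treg and Foxp3-negative Cd4 T cells overlapped for both gates. Both gates were met by 5 Treg cells, and 52 of the 83 (62.7%) met neither. Unthinned, 67.8% of the 87 met the activated and 46.0% the resting gate, so these shares describe depth as well as state.

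At least 3 of the 10 cell cycle genes were seen in 14 of 83 thinned Treg cells (16.9%, 9.54 to 26.7%), 8 of 60 Foxp3-negative Cd4 T cells (13.3%, 5.94 to 24.6%) and 11.6% of CD8 T cells. The reduced shares were 18.3% and 11.1%, and the unthinned share in Treg cells was 37.9%. Macrophage-gated cells met the same gate in 5.21% of cases and other cells without Cd3 in 13.2%, and the part of free RNA in these shares was not tested. The share in Treg cells did not differ from that in Foxp3-negative Cd4 T cells beyond counting error. Of the 11 MSA-2 Treg cells 1 met the gate after thinning (9.09%, 0.230 to 41.3%). Unthinned, 45.5% of them met it against 37.9% of untreated Treg cells, so the direction depended on thinning. The summed cycle genes of MSA-2 Treg cells had a log2 ratio of -0.52 (-0.85 to -0.20) to untreated Treg cells, or -0.57 (-1.04 to -0.13) reduced.

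The 25 cells in the activated gate were set beside the 58 outside it, for genes the gate did not use. Irf4 was higher inside by a log2 ratio of 1.86 (1.26 in the reduced group), Entpd1 by 1.63 (1.13) and Il2ra by 1.04 (0.76). Areg was higher by 1.06 (0.73) and Rora by 1.19 (0.81). Activated-gate cells thus also carried more CD25, CD39 and amphiregulin transcripts. Fabp5 was lower inside at -1.68 (-2.08 to -1.31), or -0.35 (-0.88 to 0.16) in the reduced group, and Gzmb at -0.25 (-0.88 to 0.33), or -0.74 (-1.39 to -0.13). Klf2 was at -0.78 (-1.18 to -0.41), or 0.18 reduced, and Ctla4 at 0.38, or -0.04 reduced. The inside cells were shallower, with a median of 3255 UMIs against 4899, and the part of depth in these ratios was not tested.

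Treg cells were scarcer in the MSA-2 library. They made up 0.620% of kept untreated cells (87 of 14039, 0.497 to 0.764%) and 0.0788% of kept MSA-2 cells (11 of 13963, 0.0393 to 0.141%), a log2 ratio of -2.98 (-4.03 to -2.07), or 7.87-fold lower. Reduced, the shares were 1.10% (75 of 6798) and 0.150% (9 of 5987), a ratio of -2.88 (-4.06 to -1.87). Foxp3-negative Cd4 T cells were also lower, with a ratio of -2.49 (-3.56 to -1.55), and CD8 T cells with a ratio of -2.84 (-3.14 to -2.56), and reduced ratios were -2.20 and -2.68. The intervals of the 3 cell types overlapped, and fewer T cells and more other cells in the MSA-2 library cannot be told apart from shares.

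Within T cells the balance was alike in the libraries. Treg cells were 3.91% (3.14 to 4.80%) of untreated and 3.03% (1.52 to 5.36%) of MSA-2 cells with Cd3 and low C1q, or 6.20% (4.91 to 7.71%) and 4.95% (2.29 to 9.18%) reduced. For each CD8 T cell there were 0.107 Treg cells (0.0847 to 0.133) in the untreated and 0.0973 (0.0473 to 0.181) in the MSA-2 library, or 0.109 and 0.0957 reduced. Of Cd8-negative T cells with Cd4 or Foxp3, Treg cells were 58.4% (87 of 149, 50.04 to 66.4%) in the untreated library and 11 of 22 (28.2 to 71.8%) with MSA-2, or 61.5% of 122 and 9 of 18 reduced. No change in the share of Treg cells among T cells was therefore detectable with 11 MSA-2 members. The share among cells with Cd4 or Foxp3 is not the Treg share of all Cd4 T cells. Treg cells entered it on Foxp3 alone, with a Cd4 UMI in 19 of the 87, while Foxp3-negative cells needed a Cd4 UMI. Another 1251 untreated cells met the Cd3, Cd8 and C1q limits with neither Cd4 nor Foxp3.

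The 11 MSA-2 members are given as counts. They held 89725 UMIs, 62.8% of them in the 2 tumor-marker barcodes, and the other 9 cells held 33400. By Foxp3, 6 had 1 UMI, 3 had 3 and 2 had 4. Ikzf2 was found in all 11 cells with 65 UMIs, Ctla4 in 8 cells with 21 UMIs and Il2ra in 6 cells with 7 UMIs. Tnfrsf4 had 32 UMIs in 10 cells, Tnfrsf18 had 21 and Icos 9. The markers of the untreated Treg cells were thus present in the MSA-2 members, Helios in each of them. In the 2 tumor-marker barcodes T cell receptor constant genes had 0 UMIs and the 6 Treg genes outside the rule summed to 160 CPM. The other 9 had these at 1138 and 4371 CPM, so the markers bore out the label less in the 2. Izumo1r and Klrg1 had 0 UMIs, as did Penk, which had 18 UMIs in the 11 MSA-2 Foxp3-negative Cd4 T cells. Il10 had 5 UMIs, all in the 2 tumor-marker barcodes, since the other 9 cells had 0.

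Summed over the identity list, the level in Treg cells was 4479 CPM untreated and 1683 CPM in MSA-2 cells, a log2 ratio of -1.41 (-1.66 to -1.18), and 7179 against 4281 CPM reduced, a ratio of -0.75 (-0.999 to -0.502). None of the 10 genes had a higher summed level in the MSA-2 library in either version, although the median cell had more Ikzf2 there (2056 against 1683 CPM, and 2178 against 1848 CPM reduced). Of the 10, 7 had any UMI in the MSA-2 Treg cells. The share of all genes higher there is not given, so this count and those for the lists below have no baseline. Foxp3-negative Cd4 T cells had ratios of -0.33 (-0.67 to -0.01) and -0.99 (-1.35 to -0.66) for the same sum, so in the reduced groups they were lower as well. Costimulatory genes in Treg cells had ratios of -1.62 (-1.92 to -1.33) and -0.94 (-1.26 to -0.64), with 0 of 9 genes higher, beside -0.26 (-0.55 to 0.03) and -0.80 (-1.11 to -0.51) in Foxp3-negative Cd4 T cells. Activated Treg genes had ratios of -1.03 (-1.30 to -0.77) and -0.42 (-0.71 to -0.14), beside -0.16 (-0.46 to 0.13) and -0.70 (-1.02 to -0.39). Reduced CD8 T cells had -0.13 (-0.25 to -0.01) for the identity, -0.37 (-0.48 to -0.27) for the costimulatory and 0.02 (-0.08 to 0.12) for the activated list. Reduced, the falls in Treg cells were thus larger than in CD8 T cells but not than in Foxp3-negative Cd4 T cells, beyond counting error. Suppressive molecules went from 0.35 (0.20 to 0.49) to -0.09 (-0.37 to 0.18) when reduced, so their direction depended on the 2 tumor-marker barcodes.

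Interferon-stimulated genes moved the other way. The 25 genes summed to 2714 CPM in the 87 untreated Treg cells and 8571 CPM in the 11 from MSA-2 tumors, a log2 ratio of 1.66 (1.53 to 1.78), and 24 of the 25 were higher. Reduced sums were 2896 and 14910.2 CPM, a ratio of 2.36 (2.21 to 2.52), again with 24 of 25 higher. Both counts lack a baseline, since the share of all genes higher in the MSA-2 library is not given. The interferon sum rose in Foxp3-negative Cd4 T cells by 1.16 (1.03 to 1.29), or 1.22 reduced, and in CD8 T cells by 1.89, or 2.35 reduced. The sum was thus higher in the MSA-2 library in each of the 3 T cell types. Neutrophil genes, led by S100a9 and with Csf3r and Cxcr2 at 0 in MSA-2 Treg cells, rose beside it, reduced from 0 to 509 CPM in Treg cells, from 0 to 1924 CPM in Foxp3-negative Cd4 T cells and from 4.15 to 1451 CPM in CD8 T cells. The part of transcripts from other cells in the interferon sums was not tested. Ifit1, an RNA-binding antiviral protein, had 140 UMIs in 87 untreated and 100 UMIs in 11 MSA-2 Treg cells, and Ifit3, its partner, had 44 and 61. Ifih1, the RNA sensor MDA5, had 87 and 69 UMIs. Within the untreated library the sum was lower in Treg than in Foxp3-negative Cd4 T cells, with a ratio of -0.17 (-0.27 to -0.08), or -0.52 (-0.65 to -0.38) reduced. By gene, 0 of 18 were 2-fold higher and 2 lower (median -0.12), and 0 of 11 and 2 reduced (median -0.24).

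**Figure D5:**
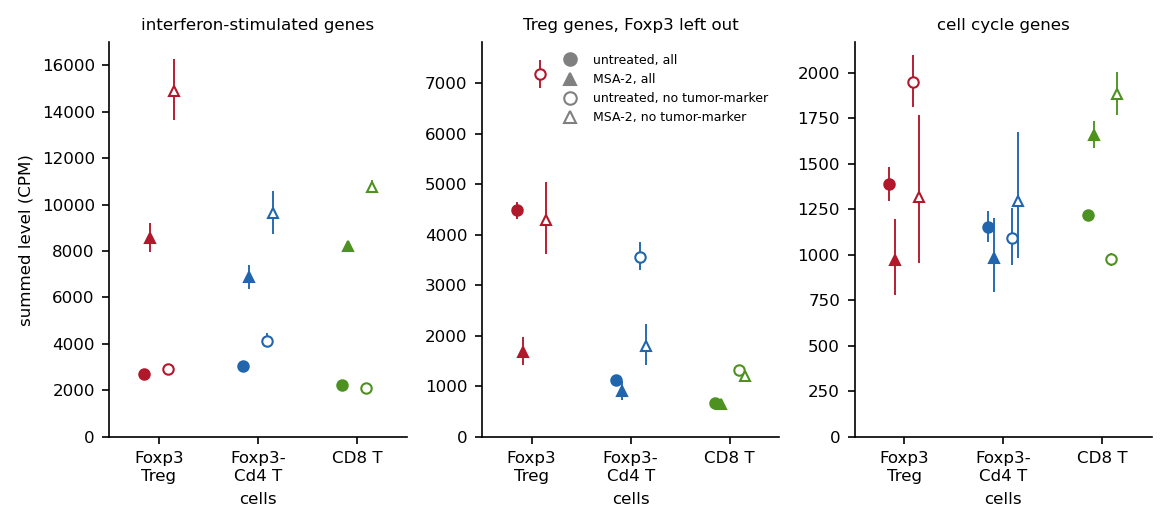
Summed levels (CPM, exact 95% counting intervals) of interferon-stimulated, Treg identity and cell cycle genes in Treg cells, Foxp3-negative Cd4 T cells and CD8 T cells of the untreated (circles) and MSA-2 (triangles) libraries, with all cells filled and reduced groups open. Interferon-stimulated genes are higher and Treg identity genes lower in the MSA-2 Treg cells in both versions.

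Genes tied to the drug's pathway and to tryptophan use were also counted in Treg cells. Of 8 names for the STING pathway and the type I interferon receptor, 6 were in the files, and 1 of 3 with enough UMIs was 2-fold higher than in Foxp3-negative Cd4 T cells (median 0.36), and 0 of 2 reduced. Their sum was at 338 CPM in Treg cells against 219.5 CPM, a log2 ratio of 0.62 (0.30 to 0.95), but at -0.01 (-0.45 to 0.44) reduced. Tmem173, the gene of STING itself, had 23 UMIs in untreated Treg cells and 2 in MSA-2 Treg cells. Cgas, which makes the STING ligand from DNA, had 20 and 3. Of 10 tryptophan and kynurenine genes 0 of 4 passed 2-fold in either direction (median -0.02), and 0 of 2 reduced (median -0.50). Their sum was at 663 CPM against 688 CPM, a ratio of -0.05 (-0.25 to 0.15), and of -0.43 (-0.76 to -0.09) reduced. From untreated to MSA-2 Treg cells this sum went from 663 to 970 CPM, a ratio of 0.55 (0.20 to 0.88), or 0.76 (0.16 to 1.32) reduced. Ido1, which degrades tryptophan, had 0 UMIs in the Treg cells of both libraries, so a level under the floor of 3 counts per group could not be measured. The difference from Foxp3-negative Cd4 T cells thus depended in both pathways on the tumor-marker barcodes, while the higher tryptophan sum in MSA-2 Treg cells came from 1 of 10 genes that was higher, or 2 of 10 reduced.

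Markers of other cell types were counted in the untreated Treg cells. Macrophage genes were found for 8 of 8 at 931 CPM together (1124 CPM and 7 of 8 reduced, Itgam at 0), most of it Apoe. MSA-2 Treg cells had 5 of 8 at 301 CPM (509 CPM reduced), with Csf1r, Itgam and Cd14 at 0. Dendritic cell and MHC class II genes were found for 7 of 10 at 782 CPM (1024 CPM reduced), led by Cd74, with Flt3, Cd209a and Siglech at 0. In MSA-2 Treg cells they were found for 2 of 10 at 111 CPM (210 CPM reduced). Fibroblast genes were found for 5 of 5 at 1036 CPM, led by Col3a1, and at 260.2 CPM reduced, and MSA-2 Treg cells had 446 CPM, or 449 CPM reduced. Tumor-cell genes were found for 3 of 5 at 1389 CPM, led by Gng11, and at 282 CPM reduced, with Krt8 and Krt18 at 0. MSA-2 Treg cells had them at 914 CPM, or 539 CPM reduced. In the untreated library fibroblast transcripts were thus lower without the tumor-marker barcodes and those of myeloid cells were not, while the tumor-cell sum holds the genes that chose these barcodes.

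The 5 NK cell genes (Ncr1, Klrb1c, Klra8, Klre1 and Eomes) and the 4 gamma delta T cell genes had 0 UMIs in the Treg cells of both libraries. In untreated Foxp3-negative Cd4 T cells the NK cell genes had 11 UMIs (11 reduced) and the gamma delta genes 11 (1 reduced). The part of such transcripts in the ratios over these cells was not tested. Neutrophil genes were found for 1 of 6 at 1.59 CPM in untreated Treg cells, and for 4 of 6 at 368 CPM with MSA-2, led by S100a9, with Csf3r and Cxcr2 at 0, and at 0 and 509 CPM reduced. Endothelial genes were found for 1 of 4, Pecam1, at 50.8 CPM. B cell genes were found for 3 of 5 at 34.9 CPM (41.5 CPM reduced), led by Igkc, and had 0 UMIs in MSA-2 Treg cells. Untreated Foxp3-negative Cd4 T cells had them at 4.99 CPM (5.65 CPM reduced), a log2 ratio of 2.81 (1.07 to 5.19), or 2.88 (0.18 to 8.27) reduced. The part of these other cell types' transcripts in the Treg values was not tested.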

How the data were processed

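The deposited gene-by-barcode counts, made by the authors with Cell Ranger on mm10 (7.0.0 in the sample notes, 7.0.1 in the file headers and a later version in the methods), were read without further normalization. Barcodes with fewer than 500 genes or over 20% mitochondrial UMIs were left out. Analyses used Python 3.11.15, numpy 2.4.6, scipy 1.17.1, pandas 2.3.3, scanpy 1.11.5 for Scrublet, matplotlib 3.10.9, and R 4.3.3 with edgeR 4.0.16. Intervals are Clopper-Pearson for shares, Poisson for sums and conditional binomial for ratios. Thinning drew 1500 UMIs per cell without replacement. The steps were tested on simulated data. The members and lists were chosen with earlier results of these data known. Named genes came from the lists and from the 15 highest and 10 lowest ratios. Alternatives were stricter cell filters, Scrublet removal, TMM factors, equal weight per cell, thinning, other UMI floors, added CPM, Foxp3-negative Cd4 T cells without Il2ra or Ikzf2 UMIs as comparison, no C1q limit, other Foxp3 and Cd4 requirements and other gate limits. Leaving out barcodes with at least 10 tumor-marker UMIs, alone or together with that comparison, was chosen after seeing the data.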

Additional observations from a re-analysis of the deposited data

Results flagged for a closer look

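For a pair of genes the log2 ratio of Treg cells over Foxp3-negative Cd4 T cells had opposite directions in the libraries with all cells. Cd247, the zeta chain of the T cell receptor complex, had a ratio of 1.02 untreated and of -1.91 with MSA-2, where the Treg cells had 4 UMIs and the Foxp3-negative Cd4 T cells 16. In the reduced groups these ratios were -0.06 and -2.49, no longer opposite. Cxcl2, a neutrophil-attracting chemokine, had a ratio of 2.18 untreated and of -2.59 with MSA-2, and the directions stayed opposite in the reduced groups at 2.04 and -2.58. The MSA-2 ratios with all cells rest on 11 against 11 cells. Neutrophil genes in that library were at 368 CPM in Treg cells and 1076 CPM in Foxp3-negative Cd4 T cells, or 509 and 1924 CPM reduced. The part of such transcripts in the Cxcl2 ratio was not tested. Each library stands for 1 pool of tumors, and the difference between libraries was not tested.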

How the results depend on the processing

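No paired analysis was possible because each group was 1 library of pooled tumors. Of the main results rerun under other settings, 62 stayed within the counting interval of the main value, 34 moved out of it and 0 changed direction. For single genes 1016 ratios stayed, 414 moved and 20 that had been past 2-fold changed direction. Apod and Gm11884, given below, also changed side but had a count of 0 and are not among the 20. Counting smaller ratios too, 229 of 1450 changed sign, 54 of them with only the tumor-marker barcodes left out and 56 with the comparison changed as well. Normalizing with TMM factors or with 10 CPM added to each level kept all 163 gene ratios within their intervals, as did stricter cell filters, and removing Scrublet calls moved 15 of 163. The Treg share of kept untreated cells (0.620%) became 0.285% when 2 Foxp3 UMIs were required, 0.135% when a Cd4 UMI was required and 0.261% when cells were thinned first. The share of untreated cells with Cd3 and low C1q (3.91%) became 1.80% with 2 Foxp3 UMIs, 0.854% with Cd4 required and 6.20% without tumor-marker barcodes. The share of untreated T cells with Cd4 or Foxp3 (58.4%) became 35.7% with 2 Foxp3 UMIs. It became 12.8% with Cd4 required of Treg cells, but there Foxp3-positive cells without a Cd4 UMI stayed in the denominator. In the MSA-2 library the share of kept cells became 0.0358%, 0.0143% and, thinned first, 0.0238%, and the share of T cells 1.38% and 0.551%. The share of MSA-2 T cells with Cd4 or Foxp3 became 9.09% with Cd4 required, again with the denominator unchanged. Foxp3 in other MSA-2 cells without Cd3 was at 0.0230% without tumor-marker barcodes. Genes at least 2-fold higher than in Foxp3-negative Cd4 T cells were 220 of 4202 tested in the main run. They numbered 363 of 3505 against those without Il2ra or Ikzf2 UMIs, 66 of 2037 without tumor-marker barcodes and 261 of 1552 with both of these changes. They were 22 of 707 after thinning, 492 of 7148 with at least 20 UMIs and 42 of 992 with at least 200. Genes at least 2-fold lower (87 of 4202) numbered 175 of 4202 with equal weight per cell and 56 of 4202 with 10 CPM added. They were 13 of 707 after thinning, 289 of 7148 with at least 20 UMIs and 16 of 992 with at least 200. The numbers tested differ, so counts alone do not compare between settings. The share of higher genes among those past 2-fold was 71.7%, and 52.4% with equal weight per cell, 193 against 175, and 48.2% without tumor-marker barcodes, 66 against 71. The median log2 ratio of all genes tested moved by less than 0.1 under each setting. Without thinning, the cycling share was 37.9% in untreated and 45.5% in MSA-2 Treg cells, beside 16.9% and 9.09% thinned. The activated gate held 74.7% of untreated Treg cells at 1 gene, 4.82% at 3 genes and 67.8% without thinning, and the resting gate 57.8%, 3.61% and 46.0%. The log2 ratio of interferon-stimulated genes in MSA-2 over untreated Treg cells was 2.36 without tumor-marker barcodes. Genes past 2-fold with all cells changed direction over Foxp3-negative Cd4 T cells as follows. Without tumor-marker barcodes Cd247 was at -0.0551, Postn at -0.29, Tbk1 at -0.0291 and Vat1 at 0.97. Apod, from 9 against 55 to 3 against 0 UMIs, and Gm11884, from 53 against 9 to 0 against 1, also changed side there. With Foxp3-negative Cd4 T cells free of Il2ra and Ikzf2 as comparison, H2-Aa was at 0.42 and H2-Ab1 at 0.35. With both changes, Cd247 was at -0.0274, Cst3 at 0.45, H2-Aa at 0.33, H2-Ab1 at 0.36, Ikzf1 at -0.75, Nt5e at -0.0199, Spp1 at 1.17, Tbk1 at -0.0539 and Zap70 at -0.35. After thinning Havcr2 was at -0.47, Lat at -0.11 and Zap70 at -0.64, and with equal weight per cell Ikzf1 was at -0.23 and Lat at -0.0909. Leaving out tumor-marker barcodes moved 103 of 161 gene ratios, and 131 of 161 were then lower than with all cells. The cause was not tested. Depth limits all shares of cells with a gene, since a median Treg cell held 3658 UMIs.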
